A study of Homo sapiens with 10 samples.

Results

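The genes LAMA3, LAMA5, LAMB1, LAMB2, LAMB3 and LAMC1, which encode laminin chains, and COL17A1, PLEC and DST, which encode proteins of the hemidesmosome, were taken by gene name from the count table, as 9 of the 58735 genes listed. RNA was sequenced from A253 cells, an established human cell line from a salivary gland tumour of the squamous type. Control cells carried a guide RNA against dTomato, the gene of a fluorescent protein, and the DUSP1 clones carried guides that flank exon 2 of DUSP1. Cl1 and Cl10 are each 1 clone grown from a single cell and are heterozygous for the deletion. DUSP1 is a phosphatase that switches off MAP kinases, and the study chose these clones because a blot showed no DUSP1 protein in them. All the cells were transduced with their guides and then with Cas9 from a lentivirus, were selected for both, and were grown in DMEM with FBS. Each group had 2 libraries, and nothing in the labels says whether the pair came from separate cultures, so p-values measure the spread between these libraries, which may be technical. The effect of the deletion and the difference between any 1 clone and its parent line cannot be told apart, and both clones were compared with the same control libraries.

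Laminins are secreted trimers of an alpha, a beta and a gamma chain that lie in the basement membrane, the sheet of matrix under an epithelium. LAMA3 and LAMB3 chains join in the laminin to which basal keratinocytes anchor, through the integrin made of the ITGA6 and ITGB4 chains, whereas LAMA5 joins LAMB1 or LAMB2 and LAMC1 in most epithelial basement membranes. In the hemidesmosome, type XVII collagen (COL17A1) spans the membrane, and the plakins plectin (PLEC) and dystonin (DST) tie the plaque to keratin filaments.

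The 6 libraries held between 47016495 and 70986593 counts, and the 9 genes together took 0.697% and 0.489% of the counts in the control libraries, 0.710% and 0.731% in Cl1 and 0.708% and 0.743% in Cl10. DUSP1 checked the labels. It stood at 744.8 and 635.7 normalized counts in the control, 304.1 and 353.9 in Cl1 and 495.4 and 415.4 in Cl10, lower in each clone by edgeR's quasi-likelihood test (log2 fold changes of -1.07 and -0.59, adjusted p of 0.000292 and 0.0113). Normalized counts are counts scaled to the mean library total of 57547900 with edgeR's TMM factors. The markers of squamous epithelium were high in every library (KRT5 between 4471 and 6055 CPM, the counts scaled by library total, summed level of the 7 markers between 10928 and 13295). Markers of fibroblasts summed to between 29.8 and 49.8 CPM, lowest in Cl10. Among them, COL1A1 (871 to 2095 counts in a library) and COL3A1 (639 to 1285 counts) were present in every library. COL1A2, DCN and PDGFRB each reached at most 0.12 CPM, and LUM was at 0 in every library. Markers of endothelial cells, leukocytes and smooth muscle summed to at most 13.8 CPM.

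In Cl10, the chains LAMA3 and LAMB3 were higher than in the control and than in Cl1. In Cl1, by contrast, LAMA5, LAMB1 and LAMC1 were higher than in the control, while LAMA3 did not pass there. LAMB3 was at 0.34 on the log2 scale in Cl1 without passing, with both Cl1 libraries above those of the control. DST passed against the control in Cl1 alone, but its log2 fold changes were alike (0.56 in Cl1 and 0.49 in Cl10). It did not pass between the clones. Between the clones, 6 of the 9 genes passed the test, LAMA3 and LAMB3 higher and LAMA5, LAMB1, LAMB2 and LAMC1 lower in Cl10. Of all genes tested, 49% passed between the clones, and 25.1% and 42.5% passed in Cl1 and Cl10 against the control. COL17A1 and PLEC did not pass edgeR's test in any of the 3 comparisons. The largest change among the 9 was that of LAMA5 in Cl1, 1.73-fold, whereas 7.54%, 13.4% and 10.8% of all genes tested passed with a change above 2-fold in Cl1 and Cl10 against the control and in Cl10 against Cl1.

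**Figure D1:**
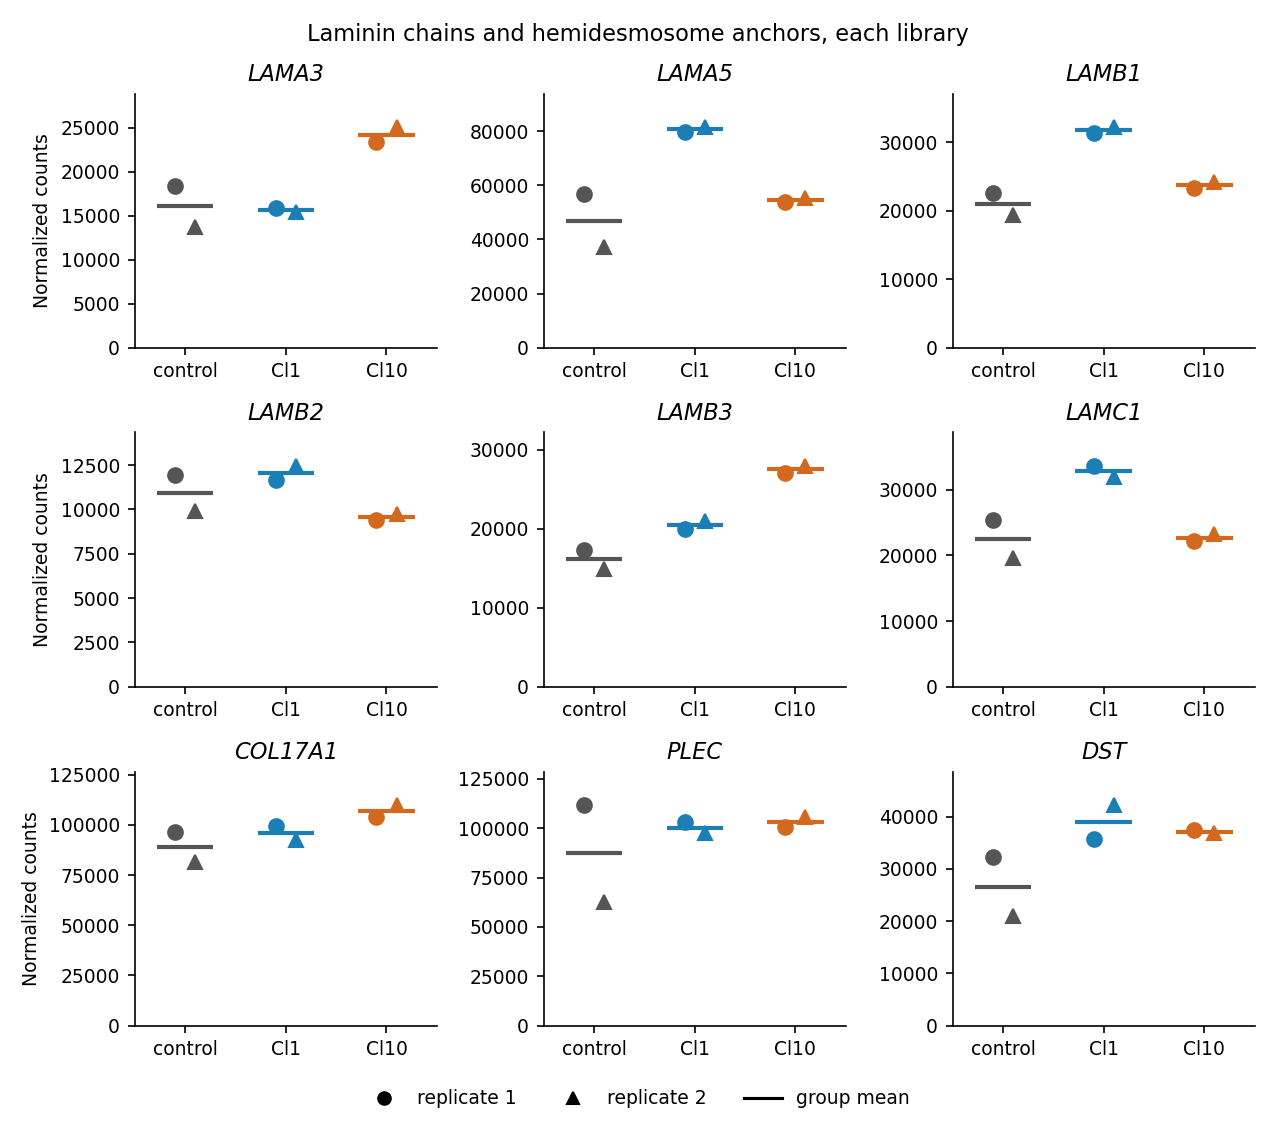
Normalized counts of the 9 genes (1 panel each, vertical axis from 0) in the 2 libraries of the control, Cl1 and Cl10, with replicate 1 as a circle, replicate 2 as a triangle and the group mean as a line. LAMA3 and LAMB3 were highest in both Cl10 libraries, LAMA5, LAMB1 and LAMC1 in both Cl1 libraries, and the control libraries lay farthest apart for PLEC (111935 and 62846).

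Of the alpha chains, LAMA3 (hg38, chr18:23689453-23956222, plus strand, 75 exons in the canonical transcript) forms the epithelial laminin named above. It had 18385 and 13746 normalized counts in the control, 15889 and 15469 in Cl1 and 23330.5 and 25123 in Cl10. Both Cl10 libraries stood above all 4 others, and the Cl1 libraries lay between those of the control. The log2 fold change was 0.60 (SE 0.141) in Cl10 against the control and 0.63 (SE 0.0634) in Cl10 against Cl1, with adjusted p of 0.0138 and 4.97e-06 by edgeR's quasi-likelihood test. In Cl1 against the control it was -0.03 (SE 0.145, adjusted p = 0.894 by the same test). Without Cl10 replicate 2, the value of Cl10 against the control was 0.54 and did not pass (adjusted p = 0.0787 in edgeR).

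LAMA5 (hg38, chr20:62307955-62367312, minus strand, 80 exons) encodes the alpha chain most widely found in adult basement membranes. Its order among the groups was another. The control libraries had 56602 and 37025 normalized counts, those of Cl1 79722 and 81662, and those of Cl10 53687 and 55307. The Cl1 libraries were higher than all the others, and both Cl10 libraries fell between the control libraries. LAMA5 rose 1.73-fold in Cl1 (log2 fold change 0.79, SE 0.182, adjusted p = 0.00764 by edgeR's quasi-likelihood test), and this value was 0.52 without control replicate 2, still past the test. Cl10 stood below Cl1, with a log2 fold change of -0.56 (SE 0.0634, adjusted p = 1.3e-05, edgeR), and its value in Cl10 against the control was 0.22 (adjusted p = 0.360, edgeR). Its exons overlap on the opposite strand those of ADRM1, over 244 bases and with 8085 to 11895 counts in a library, and those of LAMA5-AS1, which had at most 41 counts.

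LAMB3 (hg38, chr1:209614870-209652425, minus strand, 23 exons), the beta chain that pairs with LAMA3, had 17329 and 14935 normalized counts in the control, 19949 and 20937 in Cl1 and 27036 and 27977 in Cl10. The groups did not overlap, with the control lowest and Cl10 highest. It rose 1.71-fold in Cl10 against the control (log2 fold change 0.77, SE 0.100, adjusted p = 0.00120 by edgeR's quasi-likelihood test). It was also higher in Cl10 than in Cl1 (0.43, SE 0.0620, adjusted p = 9.45e-05 in edgeR). In Cl1 against the control its log2 fold change of 0.34 (SE 0.128) did not pass in edgeR (adjusted p = 0.0686), but it passed with DESeq2 (0.35, adjusted p = 0.0236), with all 6 libraries in 1 fit, with a trend over gene length subtracted and without control replicate 1 (0.45).

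LAMB1 (hg38, chr7:107923799-108003213, minus strand, 34 exons) had 22554 and 19442 normalized counts in the control, 31351 and 32304 in Cl1 and 23304 and 24198 in Cl10. It was highest in Cl1, and Cl10 stood just above the control. It rose in Cl1 (log2 fold change 0.60, SE 0.132, adjusted p = 0.00559 in edgeR's quasi-likelihood test) and was lower in Cl10 than in Cl1 (-0.42, SE 0.0616, adjusted p = 0.000116, edgeR), with 0.18 (adjusted p = 0.182, edgeR) in Cl10 against the control. With either Cl1 library left out, its rise in Cl1 kept its size (0.62 and 0.58) but not its call (adjusted p of 0.0644 and 0.0845 in edgeR). On the opposite strand LAMB1 shares 300 exonic bases with DLD (6658 to 9453 counts in a library) and 184 with the noncoding gene ENSG00000273055 (34 to 224 counts). The microRNA genes MIR4758, MIR4260 and MIR936, which overlap exons of LAMA5, LAMB3 and COL17A1 by a few bases, had at most 18 counts in a library.

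LAMB2 (hg38, chr3:49121114-49133118, minus strand, 32 exons), which takes the place of LAMB1 in many trimers, had the narrowest range of group means of the 6 laminin chains. It had 11913 and 9931 normalized counts in the control, 11638 and 12465 in Cl1 and 9401 and 9734 in Cl10. Its Cl10 libraries were the lowest of the 6 libraries. It did not pass against the control in either clone (0.14 for Cl1 and -0.19 for Cl10 on the log2 scale, adjusted p of 0.448 and 0.196 in edgeR), but was lower in Cl10 than in Cl1 (-0.33, SE 0.0616, adjusted p = 0.000734, edgeR).

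LAMC1 (hg38, chr1:183023420-183145592, plus strand, 28 exons), the gamma chain of the LAMA5 trimers, had 25327 and 19642 normalized counts in the control, 33671 and 31997 in Cl1 and 22229.7 and 23194.5 in Cl10. The Cl1 libraries were the highest, and the Cl10 libraries lay between those of the control. It rose in Cl1 (log2 fold change 0.55, SE 0.146, adjusted p = 0.0158 by edgeR's quasi-likelihood test) and was lower in Cl10 than in Cl1 (-0.53, SE 0.0629, adjusted p = 2.08e-05, edgeR), with 0.02 (adjusted p = 0.918) in Cl10 against the control. The genes around it moved with it: for the 50 nearest tested genes on chromosome 1, the median log2 fold change was 0.52 in Cl1, and -0.37 when the clones were compared. With that local median subtracted, LAMC1 stood at 0.03 (adjusted p = 0.907, edgeR) and -0.16 (adjusted p = 0.0572, edgeR), and neither difference passed. Its rise in Cl1 also did not pass with either Cl1 library left out (0.51 and 0.59, adjusted p of 0.151 and 0.0940 in edgeR).

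LAMB3, also on chromosome 1, lay among neighbours that moved the other way from it in Cl10, with a median of -0.18 against the control and -0.33 against Cl1, and in Cl1 its neighbours had a median of 0.24 against its own 0.34. In Cl1 with the local median subtracted, LAMB3 was at 0.10. For LAMA3, LAMA5, LAMB1, LAMB2, COL17A1 and DST, the neighbours' medians lay between -0.13 and 0.12 in the 3 comparisons. Those of PLEC were 0.09, 0.24 and 0.12.

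The windows before the start of transcription of the chains that were higher in Cl10 (LAMA3 and LAMB3) and of 2 that were higher in Cl1 (LAMA5 and LAMC1) are given to set those groups side by side. Each is the 250 bases upstream of a RefSeq start in GRCh38.p14, written 5' to 3' on the gene's strand. Capitals mark matches, on either strand, to TGANTCA (the consensus of AP-1 factors), GGGCGG (a GC box) and CAGGTG (an E-box). For LAMA3 the window is chr18:23872770-23873019, before a RefSeq start that lies 183567 bases inside the gene. The LAMB3 window is chr1:209651375-209651624, before the third RefSeq start listed, 1051 bases inside the gene. It is the only 1 of the 3 LAMB3 windows with a match to TGANTCA, so it cannot stand for the gene beside the others. For LAMA5 it is chr20:62367313-62367562 and for LAMC1 chr1:183023170-183023419.
LAMA3: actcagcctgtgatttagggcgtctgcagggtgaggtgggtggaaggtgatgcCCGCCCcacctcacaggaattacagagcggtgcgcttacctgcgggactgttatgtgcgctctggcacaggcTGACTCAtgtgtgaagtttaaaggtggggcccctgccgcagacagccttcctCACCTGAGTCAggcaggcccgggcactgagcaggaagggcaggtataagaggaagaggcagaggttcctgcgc
LAMB3: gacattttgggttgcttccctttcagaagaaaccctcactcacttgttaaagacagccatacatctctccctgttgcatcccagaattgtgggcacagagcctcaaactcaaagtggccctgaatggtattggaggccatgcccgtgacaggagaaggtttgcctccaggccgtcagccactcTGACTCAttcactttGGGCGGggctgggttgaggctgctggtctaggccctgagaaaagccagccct
LAMA5: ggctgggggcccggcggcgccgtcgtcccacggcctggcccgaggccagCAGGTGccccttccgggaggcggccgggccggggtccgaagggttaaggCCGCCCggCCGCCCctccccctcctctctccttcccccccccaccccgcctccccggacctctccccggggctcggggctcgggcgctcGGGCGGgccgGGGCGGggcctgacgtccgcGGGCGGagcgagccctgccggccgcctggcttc
LAMC1: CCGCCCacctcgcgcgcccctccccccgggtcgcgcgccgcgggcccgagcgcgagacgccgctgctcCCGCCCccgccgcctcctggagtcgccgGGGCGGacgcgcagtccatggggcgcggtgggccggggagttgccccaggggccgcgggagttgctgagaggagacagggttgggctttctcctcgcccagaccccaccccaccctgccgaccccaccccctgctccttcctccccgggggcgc

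TGANTCA was found in 6.57% of 35116 RefSeq windows of this length, GGGCGG in 42.6% and CAGGTG in 17.5%. The LAMA3 window held 2 matches to TGANTCA, at 125 to 119 and at 69 to 63 bases before the start, and the second overlaps a CAGGTG match on the other strand at 73 to 68. The LAMB3 window held 1, at 67 to 61 bases before the start, and the windows of the 2 other RefSeq starts of LAMB3 held none. No match to TGANTCA was found in the windows of LAMA5, LAMC1, LAMB1, LAMB2, COL17A1 or in the 3 windows of DST. GGGCGG occurred 5 times before LAMA5, 4 times before LAMB1, 3 times before LAMC1, once each before LAMA3, LAMB2 and each of the 3 starts of LAMB3, and 4 times before the first start of DST and not before its 2 others, while the COL17A1 window held none of the 3 motifs. A match describes letters in a window and is not a bound site.

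Type XVII collagen, COL17A1 (hg38, chr10:104031286-104085880, minus strand, 56 exons), had 96392 and 81485 normalized counts in the control, 99388 and 92482 in Cl1 and 104012 and 110071 in Cl10. Both Cl10 libraries were the highest, and the Cl1 libraries overlapped those of the control. Against the control its log2 fold change was 0.11 (SE 0.148) for Cl1 and 0.27 (SE 0.110) for Cl10, and it was 0.16 (SE 0.0687) between the clones, with adjusted p of 0.625, 0.0852 and 0.0683 by edgeR's quasi-likelihood test. In Cl10 against the control it passed in 5 of 13 alternatives, with DESeq2 (0.28, adjusted p = 0.0498), with no filter on low counts (0.25), with the local median subtracted (0.37) and without either control library. Between the clones it passed in 4 of 13, with library size only (0.23), with no filter (0.17) and at 0.21 and 0.10 without Cl1 replicate 1 and without Cl1 replicate 2.

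Plectin, PLEC (minus strand, 32 exons in the canonical transcript), had 111935 and 62846 normalized counts in the control, 102953 and 97352 in Cl1 and 100710 and 105841 in Cl10. All 4 clone libraries lay between the control libraries, which differed from each other more than any group mean did from another. On the log2 scale it changed by 0.20 and 0.25 against the control and by 0.05 between the clones (SE 0.216, 0.238 and 0.0669), with adjusted p of 0.545, 0.439 and 0.583 in edgeR. The sign against the control hung on 1 control library: without control replicate 2 the values were -0.15 and -0.12, and without control replicate 1 they were 0.67 and 0.72.

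Dystonin, DST (hg38, chr6:56457987-56954830, minus strand, 104 exons), whose epithelial isoform is the hemidesmosomal plakin and whose other isoforms are found in muscle and neurons, had 32189 and 20901 normalized counts in the control. It had 35791.5 and 42276 in Cl1 and 37426.5 and 36791 in Cl10. All 4 clone libraries were above both control libraries, and those of Cl10 lay between those of Cl1. It rose in Cl1 (log2 fold change 0.56, SE 0.184, adjusted p = 0.0422 by edgeR's quasi-likelihood test) and was at 0.49 (SE 0.185, adjusted p = 0.0709, edgeR) in Cl10. In Cl10 it passed with DESeq2 (0.50, adjusted p = 0.00838) and in 7 of 13 alternatives in all. In Cl1 it did not pass when counts were scaled by library size alone (0.49, adjusted p = 0.0704, edgeR), without control replicate 2 (0.29, adjusted p = 0.0882), without Cl1 replicate 1 (0.67, adjusted p = 0.0770) or without Cl1 replicate 2 (0.43, adjusted p = 0.282). Between the clones the value was -0.07 (SE 0.0777, adjusted p = 0.492, edgeR), and it passed at -0.19 without Cl1 replicate 1. Counts per gene do not separate the isoforms of DST, PLEC or LAMA3.

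**Figure D2:**
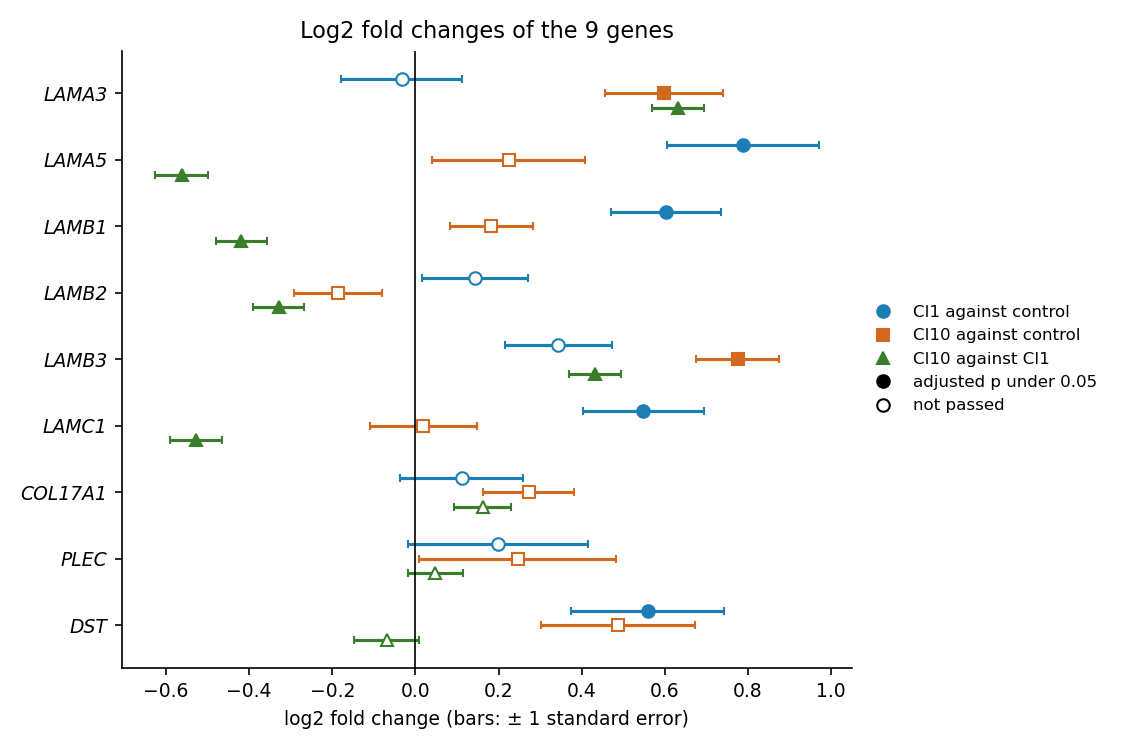
Log2 fold changes of the 9 genes (horizontal axis) in Cl1 against control (blue circles), Cl10 against control (orange squares) and Cl10 against Cl1 (green triangles), with bars of 1 standard error and filled symbols for an adjusted p under 0.05 in edgeR. The bars of Cl10 against Cl1 (SE of 0.0616 to 0.0777) are shorter than those of either comparison with the control, and LAMA3 and LAMB3 are the filled triangles on the positive side.

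In Cl1 against the control, 4 of the 9 genes passed the test, all higher (44.4%), where 25.1% of all genes tested passed, 12.4% as higher and 12.8% as lower. The libraries of the groups did not overlap for 5 of the 9, all higher, and for 63.6% of all genes (30.6% higher and 33% lower). The median log2 fold change of the 9 was 0.34, against -0.01 for all genes. In Cl10 against the control, 2 of 9 passed (22.2%), both higher, against 42.5% of all genes (20.6% higher and 21.8% lower). The groups did not overlap for 5 genes that were higher and 1 that was lower, against 73.8% of all genes (36.2% higher and 37.6% lower), and the medians were 0.25 and -0.01. Between the clones, 6 of 9 passed (66.7%), against 49% of all genes, with 2 higher and 4 lower in Cl10 against 24.9% and 24.1%. The clones did not overlap for 7 of 9, 3 higher and 4 lower, against 74.8% of all genes (37.4% higher and 37.3% lower), and the medians were -0.07 and -0.0012. Which share was larger turned in Cl10 with DESeq2 (44.4% of the 9 and 37.2% of all genes), with no filter on low counts (55.6% and 27.8%) and without either control library, and in Cl1 without Cl1 replicate 1 (11.1% and 12.6%) or Cl1 replicate 2 (11.1% and 12.9%).

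The comparisons with the control shared a pair of control libraries that differed for these genes. In control replicate 2 all 9 genes were lower than in control replicate 1, by a log2 difference between -0.21 (LAMB1 and LAMB3) and -0.83 (PLEC), with a median of -0.37. In Cl1, 4 of the 9 were lower in replicate 2 (median 0.03), and in Cl10 1 of 9 (median 0.05). The difference between the control libraries went with gene length over all genes with a mean of at least 5 CPM, from a median of 0.23 for merged exons under 2000 bases to -0.21 over 16000 bases, and the merged exons of all 9 genes are longer than 4000 bases. LAMA5 (-0.61), DST (-0.62) and PLEC (-0.83) differed most, and of the 9 LAMB1 alone was within the quartiles of genes of its length. With the trend over length subtracted, LAMA5, LAMB1, LAMC1 and DST in Cl1 and LAMA3 and LAMB3 in Cl10 still passed. Without control replicate 1, 7 of the 9 genes passed in Cl1 and 8 in Cl10, against 35.8% and 60.1% of all genes. Without control replicate 2, 3 and 7 passed, against 29.1% and 57.8%. In these fits the spread comes from the 2 libraries of the clone and the lone control is assumed to vary as they do. In Cl10, LAMA5 was then at 0.56 or -0.054, LAMB1 at 0.29 and LAMC1 at 0.21 or -0.16 (without control replicate 1 or 2), COL17A1 at 0.40 or 0.15 and DST at 0.83 or 0.21, and LAMB2 at -0.32 without control replicate 2. In Cl1, LAMB2 was at 0.28 without control replicate 1.

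**Figure D3:**
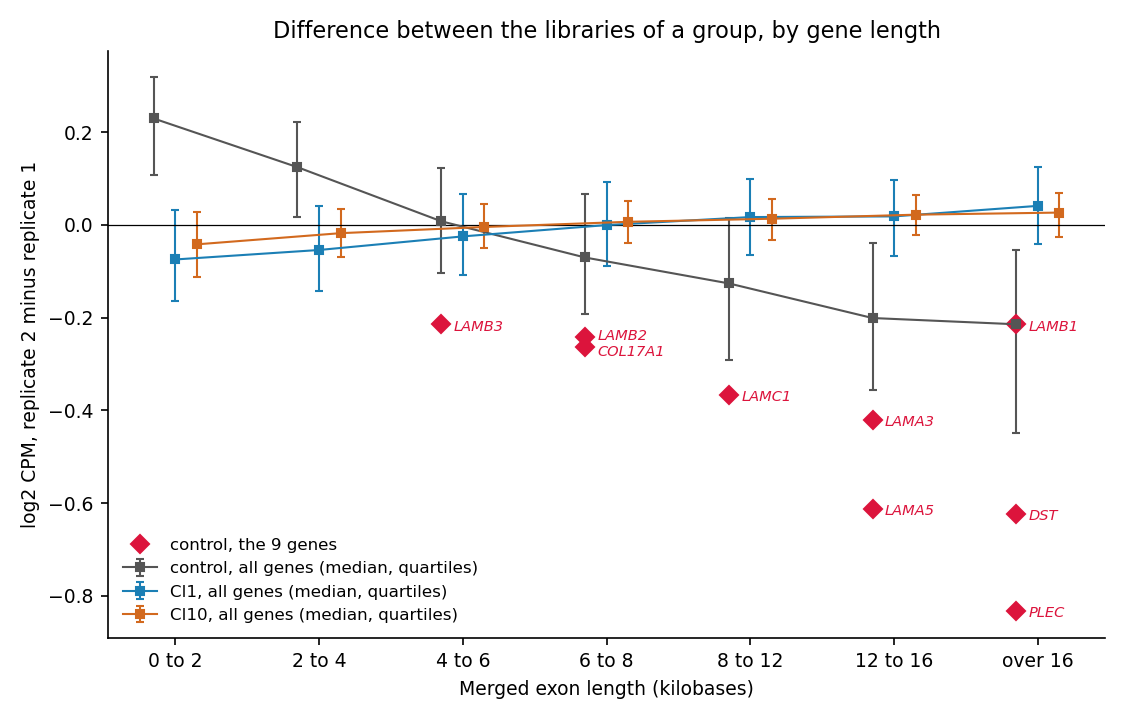
Log2 difference in CPM between replicate 2 and replicate 1 (vertical axis) over classes of merged exon length in kilobases (horizontal axis), as the median and quartiles of all genes in the control (grey), Cl1 (blue) and Cl10 (orange), and for the 9 genes in the control (red diamonds). The control medians fall from 0.23 to -0.21 while those of the clones stay between -0.07 and 0.04, and all 9 diamonds lie below 0.

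Ratios between chains within a library do not depend on its scaling. LAMA3 had 0.325 and 0.371 counts for each count of LAMA5 in the control libraries, 0.199 and 0.189 in Cl1 and 0.435 and 0.454 in Cl10. The groups did not overlap, with Cl1 below and Cl10 above the control. LAMB3 over LAMB1 was 0.768 in both control libraries, 0.636 and 0.648 in Cl1 and 1.16 in both of Cl10, in the same order as LAMA3 over LAMA5. LAMB3 over LAMB2 was 1.45 and 1.50 in the control, 1.71 and 1.68 in Cl1 and 2.88 and 2.87 in Cl10. For this ratio Cl1 stood above the control too.

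Ratios were also computed for some of the pairs of chains that can join in a trimer. LAMA5 over LAMB2, another such pair, was not among them. In Cl1 against the control LAMA5 was at 0.79 and LAMB2 at 0.14 on the log2 scale, so this pair did not move together. The ratios below therefore do not speak for all chains that can join. LAMB1 over LAMC1 lay between 0.891 and 1.05 in the 6 libraries. LAMA5 over LAMC1 was 2.23 and 1.88 in the control and between 2.37 and 2.55 in the clones. LAMA5 over LAMB1 was 2.51 and 1.90 in the control, 2.54 and 2.53 in Cl1 and 2.30 and 2.29 in Cl10. LAMB3 over LAMA3 was 0.943 and 1.09 in the control, 1.26 and 1.35 in Cl1 and 1.16 and 1.11 in Cl10. These ratios are counts over counts, not corrected for length, and serve to compare libraries, not chains.

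**Figure D4:**
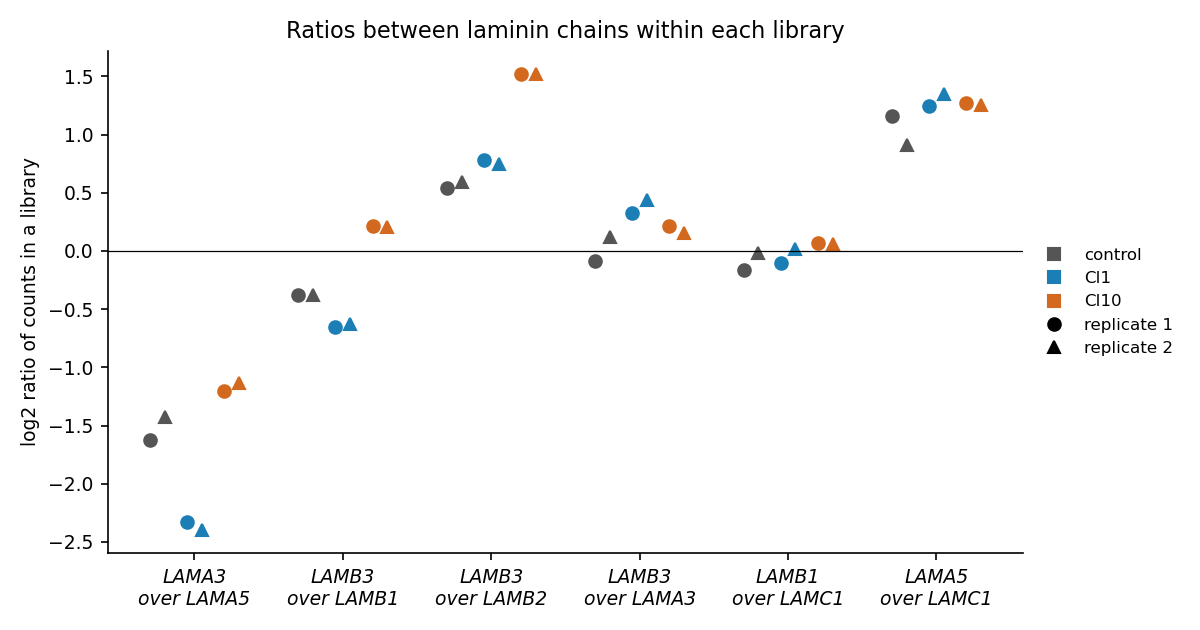
Log2 of the ratio of raw counts of pairs of laminin chains (horizontal axis) within each library of the control (grey), Cl1 (blue) and Cl10 (orange), with replicate 1 as a circle and replicate 2 as a triangle. LAMA3 over LAMA5 runs from -2.40 in Cl1 to -1.14 in Cl10, LAMB3 over LAMB1 and over LAMB2 are highest in Cl10, and LAMB1 over LAMC1 stays between -0.17 and 0.07.

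Between genes, levels were compared per kilobase of merged exons, as TMM-scaled CPM per kb. In the control COL17A1 had the highest level of the 9 genes, 221 ± 26.2 (SD, n = 2), followed by PLEC (89.4 ± 35.5), LAMB3 (60.3 ± 6.33), LAMA5 (56.9 ± 16.8) and LAMC1 (46.3 ± 8.27). The ranges of PLEC, LAMB3 and LAMA5 overlapped, as did those of LAMA5 and LAMC1. Within each control library PLEC stood above LAMB3 and LAMA5, and LAMA5 above LAMC1, while LAMB3 and LAMA5 changed places. With 2 libraries that differed with gene length, the order of these genes is not settled. LAMB2 (27.6 ± 3.55), LAMB1 (19.6 ± 2.06), LAMA3 (19.3 ± 3.93) and DST (9.58 ± 2.88) were lower, and LAMB1 and LAMA3 did not differ beyond their spread. In Cl10 LAMB3 reached 103 ± 2.49, next to PLEC at 106 ± 3.71, and LAMA5 reached 98.1 ± 1.67 in Cl1. The length matters most for LAMB1, whose merged exons span 18592 bases against 6737 for its longest transcript, and for DST (48142 and 24709). Per kilobase of the longest transcript, LAMB1 stood at 54.2 and DST at 18.7 in the control.

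As a share of the per-length level of the 2 alpha chains among these genes, LAMA3 made up 25.5% ± 1.80 (SD, n = 2) in the control, 16.1% ± 0.485 in Cl1 and 30.5% ± 0.664 in Cl10. LAMB3 held 56.1% ± 0.338 of the 3 beta chains in the control and 55.9% ± 0.0216 in Cl1, and 68.9% ± 0.0302 in Cl10. LAMB1 held 18.2%, 21.8% and 14.9%, and LAMB2 25.7%, 22.3% and 16.2%, in the same order. Per kilobase of the longest transcript the order of these chains turned, with 35.5%, 40.8% and 30.4% for LAMB1 and 21.8%, 18.3% and 14.5% for LAMB2. Cl10 thus had the largest shares of LAMA3 and LAMB3 and Cl1 the largest of LAMA5 and LAMB1.

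Of 5 other laminin genes, LAMA1 had no count in any library, so 4 were tested. In Cl1 2 of the 4 were higher and 1 lower, in Cl10 2 were higher and 2 lower, and between the clones 2 were lower in Cl10 and 2 did not pass. LAMA4, an alpha chain of vessels and muscle, had 69 and 36 counts in the control and rose to 348 and 247 in Cl1 and 150 and 127 in Cl10 (log2 fold changes of 2.58 and 1.61, adjusted p of 6.25e-06 and 0.00206 in edgeR). LAMB4 had 6 and 12 counts in the control, and 119 and 83 in Cl1 and 120 and 66 in Cl10 (3.51 in each clone, adjusted p of 4.91e-05 and 0.000949 in edgeR). LAMA2, the alpha chain of muscle, was lower in Cl10 than in Cl1, with counts of 197 and 159 against 480 and 424 (-1.23, adjusted p = 1.21e-05, edgeR). Next to LAMA5 and LAMA3 these alpha chains were scarce: LAMA2 and LAMA4 each held at most 0.369% of the alpha chains per kilobase of merged exons in a library, and at most 0.638% per kilobase of the longest transcript.

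Among 10 receptors and partners of the hemidesmosome, 2 were higher and 1 lower in Cl1, 2 higher and 2 lower in Cl10, and 2 higher and 4 lower in Cl10 than in Cl1. COL7A1, the anchoring fibril collagen that binds laminin, differed between Cl10 and Cl1 by -1.11 on the log2 scale (5278 and 5048 against 10809 and 11598 normalized counts, adjusted p = 4.85e-08, edgeR). Its control libraries had 10439 and 7197. Against the control it was lower in Cl10 (-0.77, adjusted p = 0.00923, edgeR) and did not pass in Cl1 (0.35, adjusted p = 0.128, edgeR). Of 9 other basement membrane genes tested, 2 were higher in Cl1 and 2 lower in Cl10, and between the clones 6 were lower and 1 higher in Cl10. NID1, nidogen, which binds the LAMC1 arm and links laminin to type IV collagen, was at 21509.7 and 16389.7 normalized counts in the control, 42463 and 43902.5 in Cl1 and 21945 and 23184 in Cl10. It rose in Cl1, with a log2 fold change of 1.19 (SE 0.150, adjusted p = 0.000143, edgeR).

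Of 5 other plakins, 2 were higher in Cl1, in Cl10 all 5 lay between -0.12 and 0.31 without passing, and between the clones 3 were lower and 1 higher in Cl10. Their median was 0.50, 0.05 and -0.45 on the log2 scale in the same order. Of 7 enzymes that cut laminins, type XVII collagen or their receptors, 4 were higher and 1 lower in Cl1, 2 higher and 1 lower in Cl10, and 4 were lower in Cl10 than in Cl1, where the other 3 did not pass. The share of genes that passed over all genes, given above, holds as the background of these counts.

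LAMA5 had the widest range of group means of the 9 genes (0.82 on the log2 scale of CPM), next to LAMB3 (0.77), and COL17A1 the narrowest (0.27). Over the 6 libraries, the genes whose log2 CPM ran most like those of LAMA5, among 11655 genes with a mean of at least 5 CPM, were ATRN (r = 0.995), TNS3 (0.993) and MTSS1L (0.992). With 3 groups of 2 libraries such values describe the order of the groups more than of the libraries, and 322 genes had r above 0.9. In bulk RNA, more cells that express a gene and more RNA in each cell cannot be told apart.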

How the data were processed

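RNA of A253 cells was sequenced in 6 libraries, 2 each of the control, Cl1 and Cl10. The labels name the Illumina Stranded mRNA Prep kit, the study's methods a TruSeq kit. The authors used HISAT2 for alignment to hg38 and HTSeq for counting, and they deposited raw counts for 58735 genes. The submitters' processing notes also name StringTie and DESeq. The gene annotation and the strand setting are not given in the sources used here, so genes that overlap on opposite strands may share reads. Columns were matched to samples by name, and 58207 gene identifiers were found in GENCODE v44, which gave coordinates and lengths. Promoter sequences come from RefSeq (GRCh38.p14). The 4 libraries on SOX2 were not analysed here.

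Each comparison was fitted on its own libraries over all genes with edgeR 4.0.16 in R 4.3.3 (filterByExpr, TMM, glmQLFit, glmQLFTest, Benjamini-Hochberg adjustment over 20153, 19875 and 19818 genes, threshold 0.05). Standard errors were obtained from the log2 fold change and the F statistic. Neither sets of genes nor levels per length were tested. DESeq2 1.42.0, other scalings and filters, a single fit, a replicate block, the median of the 50 nearest genes and a length trend (spline, 5 degrees of freedom) were alternatives. All 9 genes are named, with DUSP1, overlapping genes, genes of the lists that passed with a change above 2-fold, and the 3 genes most like LAMA5. A gene of the lists and the shares that need it are not reported here. The 9 genes and the lists were chosen with earlier results of these data known. In simulated counts, 100 genes were changed 2-fold and 100 others 4-fold among 19720 (Cl1 against control), 19425 (Cl10 against control) and 19448 (Cl10 against Cl1). Of the 2-fold genes 93, 95 and 93 were recovered, and of the 4-fold genes 100, 99 and 100. There were 15, 34 and 10 false calls among the unchanged genes. The genes changed were a far smaller part than the 25.1%, 42.5% and 49% that passed in the data. No change among the 9 genes reached 2-fold, so the recovery does not speak for changes of their size. The simulated counts held no shift with gene length between libraries, so their false calls need not be those of these data. The libraries of a group were not copies: 58.5%, 47.3% and 23.6% of genes differed within the control, Cl1 and Cl10 by a chi-square test at 0.05. Each of the 9 genes had at least 8132 counts in every library.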

Additional observations from a re-analysis of the deposited data

Results flagged for a closer look

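The 2 clones, both heterozygous for the same deletion, differed from each other in 6 of the 9 genes by the direct test of the difference, edgeR's quasi-likelihood test of Cl10 against Cl1, which uses no control library. The log2 differences were 0.63 for LAMA3 and 0.43 for LAMB3, higher in Cl10, and -0.56 for LAMA5, -0.42 for LAMB1, -0.33 for LAMB2 and -0.53 for LAMC1, lower in Cl10. Of all genes tested, 49% passed the same test. All but the difference in LAMC1, which did not pass with the median of its neighbours subtracted, passed in the 13 alternatives run. DUSP1 itself was also higher in Cl10 than in Cl1 (0.48, adjusted p = 0.00817 by the same edgeR test). Cl1 and Cl10 are each a single clone, so the deletion and other differences between the clones cannot be told apart.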

How the results depend on the processing

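With 2 libraries a group, 4, 2 and 6 of the 9 genes passed in Cl1, in Cl10 and between the clones. With 1 library left out, the lone library of a group is assumed to vary like the other group, and these counts ran from 1 to 7, 1 to 8 and 6 to 8. Those of all genes ran from 2535 to 7212, 4954 to 11948 and 6979 to 10750. With a 2-fold threshold added, 0, 0 and 0 of the 9 passed, and 1520, 2667 and 2131 of all genes did. In Cl10 against the control, 4 of the 9 passed with DESeq2 and 5 with no filter on low counts, against 7388 and 9683 of all genes.

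LAMA5 in Cl1 (0.52 to 1.13), LAMB3 in Cl10 (0.67 to 0.96) and LAMA3, LAMA5, LAMB1, LAMB2 and LAMB3 between the clones passed in all 13 alternatives. Signs turned only for genes that had not passed in the main test of that comparison. In Cl1 these were LAMA3 (0.048 with the local median subtracted, -0.22 to 0.19 with 1 library left out, the sign turning without control replicate 1) and PLEC (-0.15 without control replicate 2 to 0.67 without control replicate 1). In Cl10 they were LAMA5 (-0.054 without control replicate 2 to 0.56 without control replicate 1), PLEC (-0.12 to 0.72, the same libraries) and LAMC1 (-0.11 with the local median subtracted, -0.017 with the length trend subtracted, and -0.16 without control replicate 2, -0.015 without Cl10 replicate 2 and 0.21 without control replicate 1). Between the clones they were PLEC (-0.068, local median) and DST (0.00059 with library size only, -0.19 without Cl1 replicate 1 and 0.050 without Cl1 replicate 2). The cause was not tested.

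Same-numbered libraries share only a number (correlations of their deviations of -0.07, -0.02 and 0.01). With the replicate block, 4, 3 and 6 of the 9 passed, against 4841, 8681 and 9894 of all genes, and DST in Cl10 was at 0.52.

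Per kilobase of the longest transcript in place of merged exons, control levels were 26.2 for LAMA3, 54.2 for LAMB1, 33.3 for LAMB2, 275 for COL17A1 and 18.7 for DST. Shares were 17.3% for LAMA3 in Cl1 and 32.3% in Cl10 and, in the control, Cl1 and Cl10, 35.5%, 40.8% and 30.4% for LAMB1, 21.8%, 18.3% and 14.5% for LAMB2 and 42.7%, 41.0% and 55.1% for LAMB3.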

Other observations

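ITGA6, the alpha chain of the hemidesmosome integrin, rose in Cl1 and in Cl10 (log2 fold changes of 0.56 and 0.97, adjusted p of 0.0152 and 0.000992 by edgeR's quasi-likelihood test) and was higher in Cl10 than in Cl1 (0.41). ITGB4, its beta chain, was at 0.25 and -0.18 in the clones against the control, without passing (adjusted p of 0.232 and 0.243), and lower in Cl10 than in Cl1 (-0.43, adjusted p = 0.000194 in edgeR). ITGA3, another alpha chain that binds these laminins, fell by 0.81 on the log2 scale in Cl10 and was lower there than in Cl1 (-0.63), and ITGB1, which pairs with it, was at -0.01 in each clone against the control and at 0.0023 between the clones, without passing. These 4 genes were named after their values were seen.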
